A study of Homo sapiens with 6 samples.

Results

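The loci of 9 transcription factor genes that act when mesoderm and endoderm form were examined for open chromatin in sorted human embryonic stem cells. The genes were T (brachyury), MIXL1, EOMES, GSC, LHX1, GATA4, GATA6, SOX17 and FOXA2. An accessible region was assigned to a locus when its midpoint lay in a fixed hg19 window of 40 to 130 kb named for the gene. The assignment used position alone, though the windows were chosen with earlier results of these data known. This gave 45 of the 118556 accessible regions with deposited counts: 14 for GATA4, 6 each for GATA6 and SOX17, 5 for LHX1, 4 for FOXA2, 3 each for EOMES and GSC, and 2 each for T and MIXL1. The cells were of WA09, a single human embryonic stem cell line, so the results describe 1 genetic background. The high population was sorted as GCTM-2highCD9highEPCAMhigh and the mid population as GCTM-2midCD9mid, where GCTM-2 is a pericellular matrix proteoglycan antigen and CD9 and EPCAM are cell surface proteins. The labels give no EPCAM gate for the mid population, whose sample titles call it low. Both populations came from the same maintenance culture conditions, without a differentiation treatment in the labels, and each was represented by 3 biological replicates. The assay, FAST-ATAC, exposes permeabilized cells to Tn5, a transposase that enters open chromatin and leaves sequencing adapters there, so that reads accumulate where DNA is accessible.

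As background, pluripotent cells leave the epiblast through the primitive streak, where Nodal, BMP and WNT signals switch on T, MIXL1 and EOMES. The anterior streak and organizer then express GSC and LHX1, and definitive endoderm carries SOX17, FOXA2, GATA4 and GATA6. Genes of this kind are known in embryonic stem cells for CpG-rich promoters that carry Polycomb marks beside active marks while the gene is silent or barely expressed. Open chromatin at such a gene is therefore no measure of its transcript, and no transcript was measured in these libraries. The data are averages over a sorted population, so that more cells with a region open and a wider opening in each cell cannot be told apart.

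Promoter sequences are shown for the loci that had a RefSeq entry and could be printed, to give their CpG content, which the choice of windows did not use. Entries were found for 5 of the 9 loci (T under its current symbol TBXT, MIXL1, EOMES, GSC and GATA6). They cover 250 bases before to 50 after the start site in GRCh38.p14, a build other than that of the counts, so no accessible region was placed on them. The CpG dinucleotides are in capitals.

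T, chr6:166168606-166168905, minus strand: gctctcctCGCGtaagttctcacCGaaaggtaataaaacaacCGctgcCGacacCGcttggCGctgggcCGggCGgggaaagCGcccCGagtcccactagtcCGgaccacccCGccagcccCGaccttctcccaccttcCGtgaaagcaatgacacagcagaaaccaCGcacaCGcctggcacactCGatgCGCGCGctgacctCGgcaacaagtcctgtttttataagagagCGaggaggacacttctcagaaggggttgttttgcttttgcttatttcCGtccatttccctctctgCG
MIXL1, chr1:226223414-226223713, plus strand: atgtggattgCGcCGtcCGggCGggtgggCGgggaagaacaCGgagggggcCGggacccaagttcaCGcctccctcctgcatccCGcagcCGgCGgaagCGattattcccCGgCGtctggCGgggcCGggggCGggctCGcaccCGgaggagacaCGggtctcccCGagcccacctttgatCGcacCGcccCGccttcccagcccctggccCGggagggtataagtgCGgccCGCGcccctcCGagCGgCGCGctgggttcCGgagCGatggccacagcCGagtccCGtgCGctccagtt
EOMES, chr3:27722274-27722573, minus strand: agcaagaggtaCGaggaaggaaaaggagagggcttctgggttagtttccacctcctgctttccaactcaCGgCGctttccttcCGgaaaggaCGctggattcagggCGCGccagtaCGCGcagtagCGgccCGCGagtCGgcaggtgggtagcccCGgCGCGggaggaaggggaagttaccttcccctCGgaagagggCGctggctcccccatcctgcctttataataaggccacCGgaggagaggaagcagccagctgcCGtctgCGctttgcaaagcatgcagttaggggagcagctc
GSC, chr14:94770064-94770363, minus strand: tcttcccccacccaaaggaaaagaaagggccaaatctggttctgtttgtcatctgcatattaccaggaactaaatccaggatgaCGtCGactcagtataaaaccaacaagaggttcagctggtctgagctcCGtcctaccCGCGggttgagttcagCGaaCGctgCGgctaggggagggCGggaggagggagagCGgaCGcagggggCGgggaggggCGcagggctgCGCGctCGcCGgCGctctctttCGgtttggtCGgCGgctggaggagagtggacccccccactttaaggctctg
GATA6, chr18:22169339-22169638, plus strand: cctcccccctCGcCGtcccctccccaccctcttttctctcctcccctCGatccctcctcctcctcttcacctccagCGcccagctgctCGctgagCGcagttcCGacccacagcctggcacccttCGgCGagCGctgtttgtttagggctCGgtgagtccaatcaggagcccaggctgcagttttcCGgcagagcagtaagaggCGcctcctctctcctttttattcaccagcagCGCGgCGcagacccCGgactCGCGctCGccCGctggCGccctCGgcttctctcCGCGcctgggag

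The MIXL1 promoter held 37 CpG at a GC content of 73.3%, and 88.7% of the 35116 RefSeq promoters of the same length held fewer CpG. The GATA6 and T promoters held 25 CpG each, at GC contents of 66.7% and 58.3%. EOMES and GSC held 21 each, at 61.7% and 60.3%. All 5 lay above the median of 14 CpG, and all but T lay above the median GC content of 58.7%. A second T entry, 22 CpG, starts further downstream and is not printed. Motifs were searched on both strands. The TATA box sequence TATAAA was matched in the GSC sequence as printed above, and on the opposite strand in T and EOMES. It was matched on either strand in 11.5% of all promoters. These are sequence matches only, since their position relative to the start site was not considered. The GATA factor motif AGATAA was in none of the 5 and in 10.3% of all promoters. The forkhead motif TGTTTAC was also in none of the 5, against 3.42% of all promoters. The T-box motif AGGTGTGA was in none of the 5 and in 0.98% of all promoters.

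The 3 high libraries held 15486251 to 26225539 counts in accessible regions and the 3 mid libraries 23091028 to 29025274, and a region of the 9 loci held between 21 and 2058 reads in a sample. Values are given as CPM, the usual read count scaled to library size, here with TMM-adjusted library sizes. Fold changes are log2 of high over mid from the edgeR quasi-likelihood test over all regions with the replicate number as a block, and a region was called at a Benjamini-Hochberg adjusted p under 0.01. Negative values therefore mean more reads in the mid population.

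More accessible chromatin in the mid population was found at 5 of the 9 loci, and no region of any locus was called toward the high population. Of the 45 regions, 13 (28.9%) were called toward the mid population, against 3.77% of all regions. They comprised 5 regions of GATA4, 3 of LHX1, 3 of FOXA2, 1 of GSC and 1 of GATA6. Toward the high population 0 were called, against 2.32% of all regions. At an unadjusted edgeR p under 0.05 there were 0 in that direction and 27 toward mid, and the shares over all regions at that p were not computed. DESeq2 called 12 toward mid and 0 toward high, against 3776 and 990 of all 118556 regions. The called log2 fold changes lay between -0.81 and -0.51, which is 1.42 to 1.76 times more reads in the mid population. In all 13, each mid sample lay above each high sample, a separation seen in 23 of the 45 regions and in 13.0% of all regions. The opposite separation was seen in 0 of the 45 and in 12.9% of all regions. The median over the 45 was -0.41, against 0.03 over all regions, and 39 (86.7%) lay below 0, against 46.5% of all regions. Which regions passed the threshold depended on replicate 2, while the median difference changed little. Without the replicate 2 pair 0 of the 45 were called and the calls toward mid over all regions went from 4472 to 438, but the median over the 45 was -0.42 with 38 below 0. Without its mid sample alone 0 of the 45 were called (432 over all regions), and without its high sample alone 2 were (839 over all regions), with medians of -0.42 in both. Without the replicate block 6 were called, with a median of -0.42, and 1312 over all regions. The plot of fold changes by locus shows each region with its interval.

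**Figure D1:**
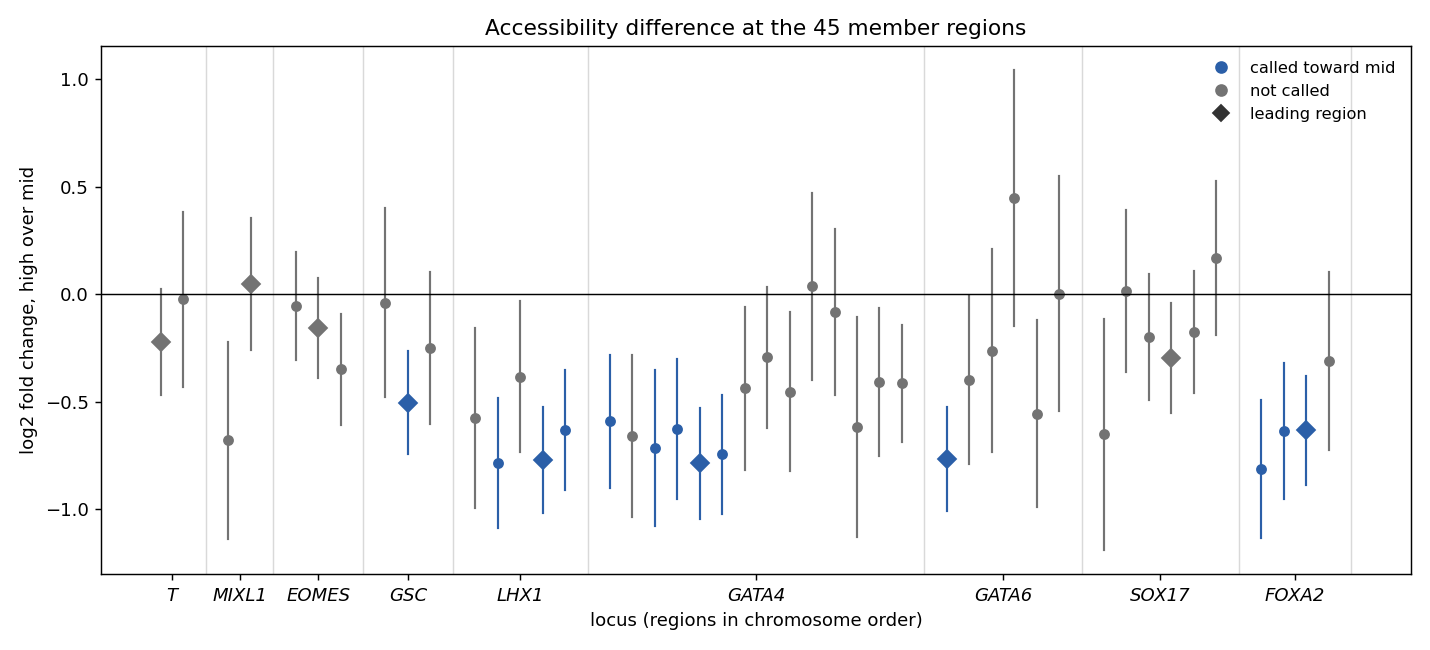
Log2 fold change of high over mid (vertical axis) for each of the 45 regions, grouped by locus along the horizontal axis. Bars are 95% intervals from the edgeR fit. Blue points are regions called toward the mid population, grey points are the others, and diamonds mark the region with most reads at each locus. All 13 blue points lie between -0.81 and -0.51, and the regions of T, MIXL1, EOMES and SOX17 hold no blue point.

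Region width went with the direction of change across the whole study. The 45 regions had a median width of 1635 bp, against 879 bp for all regions, and 12 of the 13 called regions were at least 2000 bp wide. Among regions of at least 2000 bp, 12 of 19 at the 9 loci (63.2%) were called toward mid, against 20.7% of all such regions, and their median log2 fold change was -0.63, against -0.22. Among narrower regions 1 of 26 (3.85%) was called, against 1.49%, with a median of -0.35 against 0.07. In the widest class, of 5000 bp and more, 4 of 7 were called, and the share over all regions of that class was 51.5%, so that the count at the 9 loci was close to the background there. The median of those 7, -0.51, stood beside -0.45 for the class. With loess offsets that remove the trend with width, an alternative added after the data were seen, 6 of the 45 remained called, against 2827 of all 118556 regions, and the median over the 45 was -0.32. Those 6 were 3 of GATA4, 2 of LHX1 and 1 of FOXA2. The part of width in the result was not otherwise tested.

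**Figure D2:**
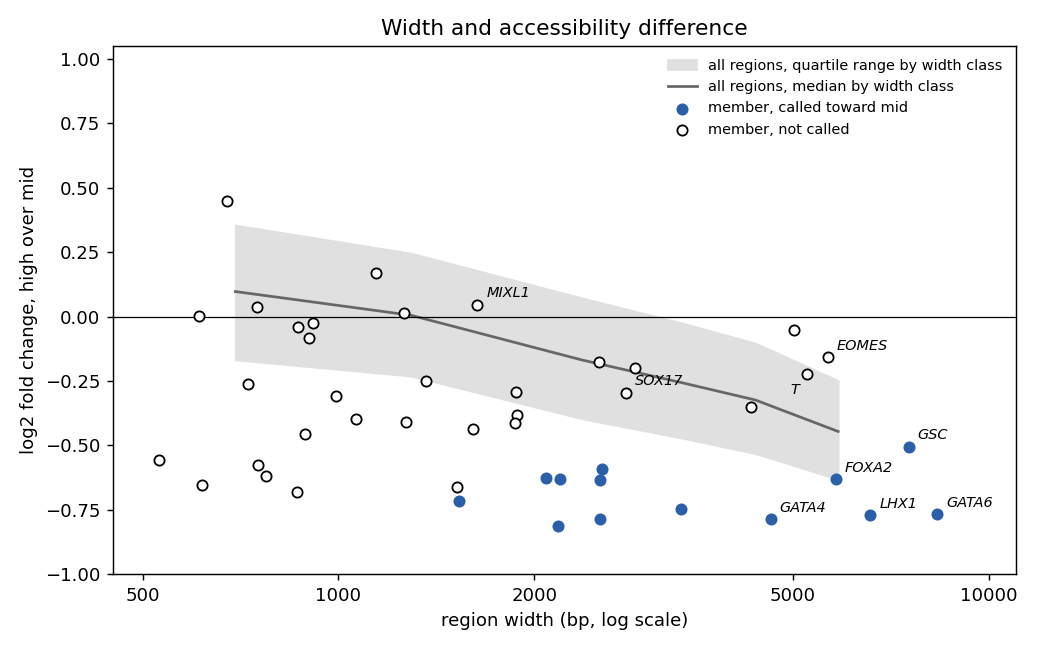
Log2 fold change of high over mid against region width in bp on a log axis, with filled points for called regions, open points for the others, and the leading region of each locus named. The line and band give the median and quartiles of all regions by width class, drawn to the median width of the widest class. The called regions other than that of GSC lie at or below the lower quartile of their class, and the leading regions of T and EOMES lie above the upper quartile of theirs, -0.25.

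The 3 streak genes had no called region among their 7, where 3.77% of all regions were called toward mid and 2.32% toward high. With so few regions, an absence of calls is not far from those shares over all widths. However, the leading T region and EOMES regions 1 and 2 were over 5000 bp wide, a class with 51.5% called toward mid. EOMES region 3, at 4305 bp, was in a class with 33.0% called toward mid. Beside regions of like width the absence of calls was thus low, though it rests on few regions. SOX17 also had none. T is the T-box factor of the primitive streak, nascent mesoderm and notochord. Its leading region, the one with most reads (chromosome 6, 166578911 to 166584163), had 40.3, 39.8 and 39.0 CPM in high replicates 1, 2 and 3 and 48.1, 46.2 and 44.7 CPM in mid replicates 1, 2 and 3. The mid samples lay above the high samples without overlap, but the log2 fold change was -0.22 ± 0.12 (SE) with an adjusted p of 0.232 and a 95% interval of -0.47 to 0.02. Under loess offsets on average CPM it was 0.01, so that its sign depended on the scaling. The other T region, of 4.82 CPM per kb, had -0.02.

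MIXL1 encodes a paired-type homeodomain factor of the streak that acts in mesoderm and endoderm patterning. Its leading region (chromosome 1, 226410609 to 226412243) had 14.95, 11.9 and 17.5 CPM in the high samples and 16.9, 11.9 and 14.3 CPM in the mid samples. The groups overlapped, with a log2 fold change of 0.05 ± 0.15 (SE), an adjusted p of 0.878 and an interval of -0.26 to 0.35. A weak region 12778 bp before it (226396967 to 226397830) had 1.71, 2.40 and 3.19 CPM in the high samples and 3.27, 4.72 and 3.76 CPM in the mid samples. There the groups did not overlap, the log2 fold change was -0.68 ± 0.23 (SE), and the adjusted p of 0.0379 missed the threshold. It had the largest difference in size among the uncalled regions of the 9 loci.

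EOMES, the T-box factor that starts definitive endoderm formation in the streak, had the most reads of the streak genes. The leading EOMES region (chromosome 3, 27760727 to 27766385) had 72.9, 58.2 and 60.7 CPM in the high samples and 76.1, 68.5 and 68.8 CPM in the mid samples. High replicate 1 lay among the mid samples, and the log2 fold change was -0.16 ± 0.12 (SE) with an adjusted p of 0.388. A neighbour 2818 bp further (27769204 to 27773508) had 37.3, 33.3 and 29.0 CPM in the high samples and 38.4, 46.3 and 41.9 CPM in the mid samples. Its samples did not overlap, its log2 fold change was -0.35 ± 0.13 (SE) and its adjusted p was 0.0593. Without the replicate 1 pair this neighbour had -0.53 and an adjusted p of 0.000611, without the replicate 2 pair -0.29 and 0.524, and without the replicate 3 pair -0.26 and 0.256. EOMES was also the locus whose reading depended most on scaling. With offsets from the median of neighbouring regions within 1 Mb both regions were called toward mid, at -0.43 and -0.63, whereas with loess offsets on average CPM the leading region had 0.14, and with loess offsets on width the neighbour had -0.03.

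GSC, a homeobox repressor of the organizer, was represented by 3 regions of which the widest was called. That region (chromosome 14, 95233319 to 95240844, 7526 bp) had 44.9, 44.2 and 40.8 CPM in the high samples and 63.9, 62.6 and 58.0 CPM in the mid samples. Each mid sample was above each high sample by more than the spread within either group, with a log2 fold change of -0.51 ± 0.12 (SE) and an adjusted p of 0.00266. It was the called region with the smallest change, and its fold change moved to -0.03 with loess offsets on width. It also lost its call with loess offsets on average CPM (-0.25, adjusted p 0.115) and without the replicate block (-0.51, adjusted p 0.0268). With neighbour offsets it had -0.33 and kept its call (adjusted p 0.0087). The other GSC regions had -0.04 and -0.25 and were not called.

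LHX1, a LIM homeobox factor needed in the head organizer and later in intermediate mesoderm and kidney, had all 5 of its regions below 0 and 3 of them called. Its leading region (chromosome 17, 35289995 to 35296569) had 41.6, 36.7 and 38.5 CPM in the high samples and 77.3, 67.6 and 56.1 CPM in the mid samples. The lowest mid sample exceeded the highest high sample, and the log2 fold change was -0.77 ± 0.12 (SE) with an adjusted p of 1.07e-05. The region from 35276877 to 35279403 had 10.3, 13.6 and 12.04 CPM in the high samples and 21.3, 18.9 and 21.4 CPM in the mid samples, a log2 fold change of -0.79 ± 0.15 (SE) with an adjusted p of 0.000225. The region from 35304876 to 35307064, the densest of the locus at 10.1 CPM per kb, had 15.9, 18.9 and 17.2 CPM in the high samples and 28.5, 26.7 and 25.1 CPM in the mid samples, with -0.63 ± 0.14 (SE) and an adjusted p of 0.00124. Among the called regions of the locus the size was thus similar at the densest and the others, but the call itself favours larger changes. The 2 uncalled regions, at -0.58 and -0.38, were the sparsest of the locus, at 5.11 and 4.27 CPM per kb. They had adjusted p-values of 0.056 and 0.138. With loess offsets on width the leading region had -0.33 and lost its call (adjusted p 0.0333), while the other called regions kept theirs at -0.61 and -0.50. With neighbour offsets the leading region had -0.37 and kept its call, and the others, at -0.39 and -0.24, lost theirs (adjusted p 0.0381 and 0.171).

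GATA4, a zinc finger factor of extraembryonic and definitive endoderm and of the heart, had the most regions, 14 over its 130 kb window on chromosome 8. Counted from the lowest coordinate, regions 1 and 3 to 6 were called. The leading region, the fifth (11558699 to 11563320), had 27.0, 25.2 and 22.7 CPM in the high samples and 45.1, 48.1 and 36.5 CPM in the mid samples. All mid samples lay above all high samples, with a log2 fold change of -0.79 ± 0.13 (SE) and an adjusted p of 1.71e-05. The sixth region (11564933 to 11568293) had 16.8, 19.9 and 15.6 CPM in the high samples and 30.7, 30.1 and 26.7 CPM in the mid samples, with -0.75 ± 0.14 (SE) and an adjusted p of 0.000118. The other called GATA4 regions had fewer reads. The first (11536647 to 11539188) had 10.6, 13.5 and 10.3 CPM in the high samples and 18.6, 19.4 and 14.0 CPM in the mid samples (log2 fold change -0.59, adjusted p 0.00632). The third (11549446 to 11550975), the narrowest called region at 1530 bp, had 5.25, 5.66 and 5.11 CPM against 9.39, 9.70 and 7.44 CPM (-0.72, adjusted p 0.00491). The fourth (11554130 to 11556215) had 8.50, 10.3 and 7.96 CPM against 11.7, 16.4 and 13.3 CPM (-0.63, adjusted p 0.00621). In none of the 3 did the populations overlap. The second region, at -0.66, missed the threshold with an adjusted p of 0.0128, so that the 6 regions of lowest coordinate had similar values and differed in the call by little. The 8 regions further along were not called. Their log2 fold changes ran from -0.62 to 0.04, and the densest of them, the fourteenth at 13.3 CPM per kb, had -0.42 with an adjusted p of 0.0331. With loess offsets on width the leading region had -0.45 and kept its call, and regions 1 and 4 lost theirs. With neighbour offsets regions 1, 3 and 4 lost theirs, at -0.45, -0.58 and -0.49.

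GATA6, which acts with GATA4 and is an early factor of primitive endoderm, had 6 regions, of which 1 was called. The leading one (chromosome 18, 19744397 to 19752729, 8333 bp) was the widest of all 45, and it had 39.4, 37.1 and 35.6 CPM in the high samples and 64.7, 66.7 and 59.4 CPM in the mid samples. The groups were far apart relative to their spread, with a log2 fold change of -0.77 ± 0.12 (SE) and an adjusted p of 9.93e-06. The other 5 regions were under 2000 bp and uncalled, with values from -0.56 to 0.45. The value of 0.45, from a region of 2.74 CPM per kb, had a 95% interval of -0.15 to 1.04. With loess offsets on width the leading region had -0.26 and an adjusted p of 0.106.

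SOX17, an HMG-box factor of definitive endoderm that also specifies human germ cells, had 6 regions on chromosome 8 and no call. Its leading region (55369999 to 55372767) had 34.8, 26.3 and 28.2 CPM in the high samples and 40.6, 35.9 and 32.9 CPM in the mid samples. High replicate 1 lay within the mid range, and the log2 fold change was -0.30 ± 0.13 (SE) with an adjusted p of 0.116 and an interval of -0.55 to -0.04. The region with the smallest p at this locus (55344106 to 55344722) had 1.66, 1.85 and 1.59 CPM in the high samples and 2.63, 2.12 and 3.22 CPM in the mid samples. The samples did not overlap, but with so few reads the log2 fold change was -0.65 ± 0.27 (SE) and the adjusted p 0.0966. The last region along the window had 0.17.

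FOXA2, a forkhead factor of endoderm, node and notochord that can bind closed chromatin, had 3 of 4 regions called. The leading region (chromosome 20, 22562333 to 22568149) had 26.8, 27.8 and 26.9 CPM in the high samples and 42.0, 44.3 and 40.0 CPM in the mid samples. Its high samples were nearly equal, every mid sample was above them, and the log2 fold change was -0.63 ± 0.13 (SE) with an adjusted p of 0.000376. The region from 22547762 to 22549939 had 9.82, 9.41 and 8.19 CPM in the high samples and 18.0, 18.1 and 12.6 CPM in the mid samples, with -0.81 ± 0.16 (SE) and an adjusted p of 0.000272, the largest called change of the 45 regions. The region from 22558289 to 22560813 had 11.9, 11.3 and 9.78 CPM against 14.2, 21.4 and 16.0 CPM, with -0.63 ± 0.16 (SE) and an adjusted p of 0.0042. Neither of these overlapped between the populations. The remaining region had -0.31 and was not called. With neighbour offsets all 3 calls ended, at -0.33 for the leading region (adjusted p 0.0223), -0.50 (0.0109) and -0.33 (0.109). With loess offsets on width the leading region had -0.23 (adjusted p 0.185) and the region from 22558289 had -0.46 (0.0356), and the region from 22547762 alone kept its call.

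**Figure D3:**
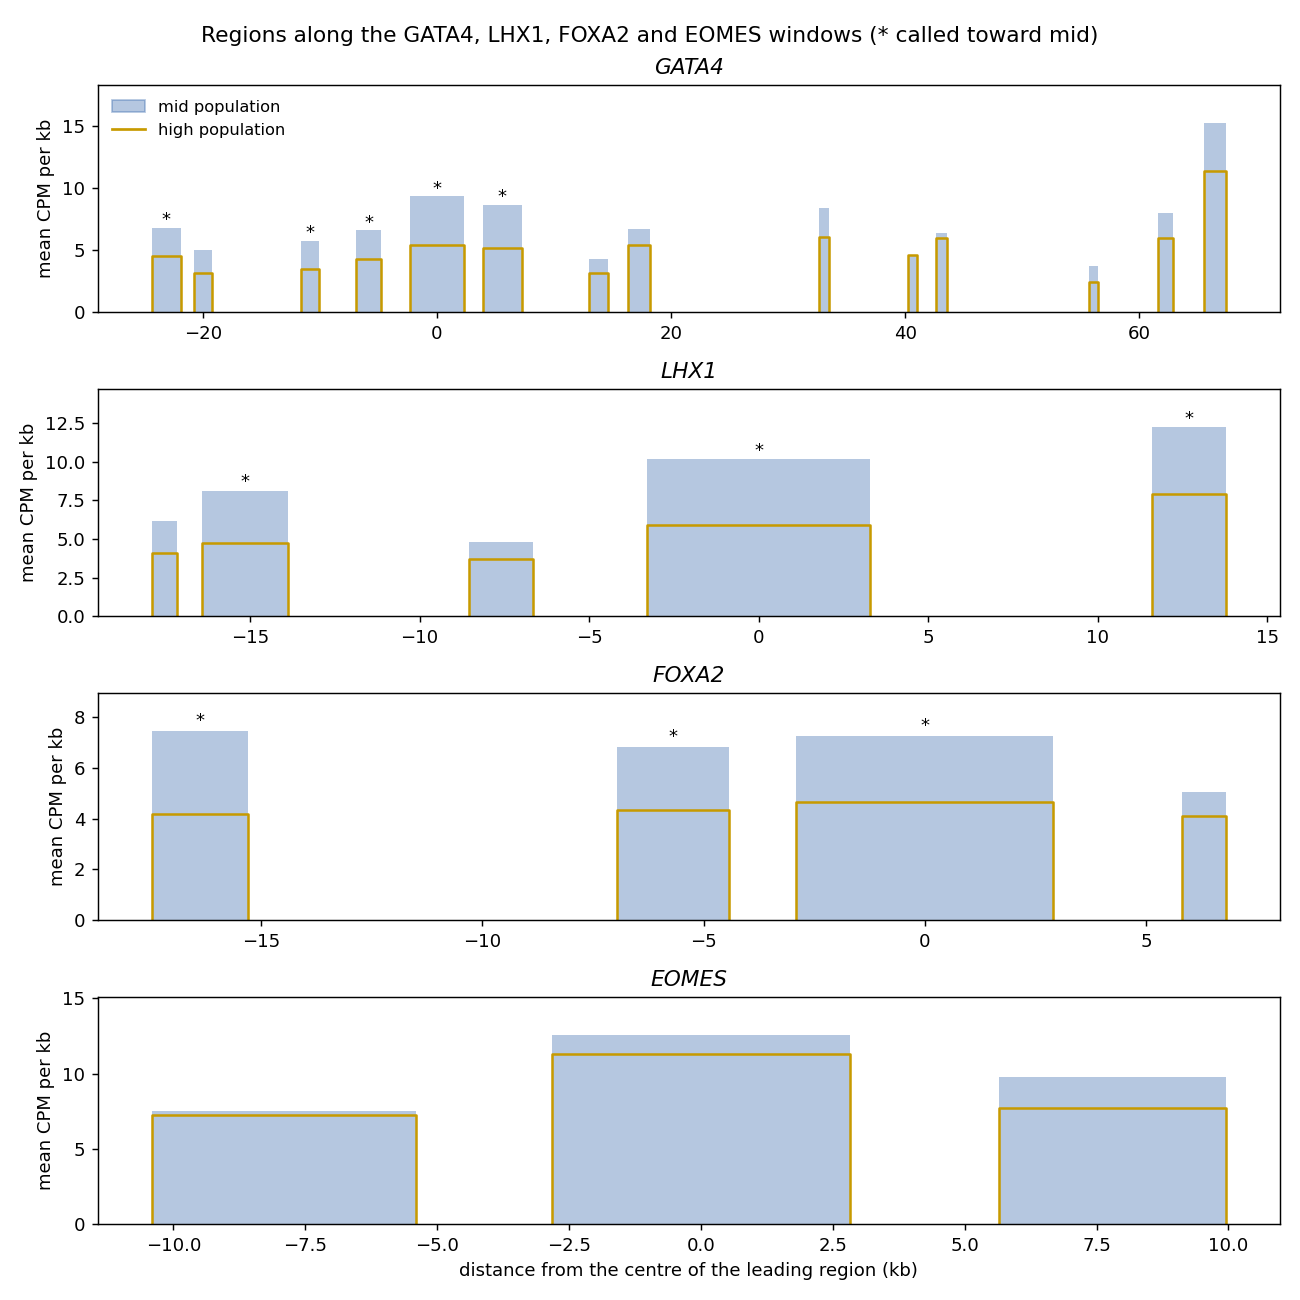
Mean accessibility along the GATA4, LHX1, FOXA2 and EOMES windows, as mean CPM per kb of each region in the high and mid populations against distance in kb from the centre of the region with most reads, with asterisks on called regions. At GATA4 the 5 asterisks fall among the 6 regions of lowest coordinate, and at EOMES no region has one.

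The reads of each locus were then summed, which weights regions by their reads. The LHX1 sum was 76.4, 80.0 and 78.5 CPM in high replicates 1, 2 and 3 and 139.7, 127.7 and 116.6 CPM in the mid replicates, 1.63 times higher in the mid population on the log2 mean. GATA4 had 133.2 ± 6.48 CPM in the high samples and 197.5 ± 20.6 CPM in the mid samples (SD, n = 3), a ratio of 1.48. FOXA2 had 51.3 ± 1.08 and 80.6 ± 7.80 CPM, a ratio of 1.57. GATA6, with 52.1 ± 3.19 and 81.6 ± 7.41 CPM, had a ratio of 1.56, and GSC, with 54.3 ± 1.30 and 73.9 ± 3.95 CPM, one of 1.36. These 5 loci and T, with 44.1 ± 0.517 and 50.8 ± 1.22 CPM and a ratio of 1.152, had every mid sample above every high sample. Each reached a two-sided exact permutation p of 0.1 (adjusted 0.15 over the 9 loci), the smallest that 3 against 3 samples allow. The other 3 overlapped. EOMES had 133.6 ± 16.9 and 151.0 ± 5.58 CPM (exact permutation p = 0.3), MIXL1 had 17.2 ± 3.20 and 18.3 ± 1.79 CPM (exact permutation p = 0.7), and SOX17 had 83.4 ± 11.8 and 95 ± 2.81 CPM (exact permutation p = 0.4). Within the same-numbered pairs, the log2 difference of high minus mid was -0.02, -0.28 and -0.25 for EOMES, -0.27, -0.21 and 0.20 for MIXL1, and 0.00, -0.37 and -0.22 for SOX17, so that EOMES was lower in the high sample of every pair although the groups overlapped. The permutation did not use the pairs. All 9 sums had the lower mean in the high population. The shares of other loci with such sums or with separated samples were not computed. Among single regions of at least 2000 bp over the whole study, 5771 of 14039 had every mid sample above every high sample. Of those wide regions 72.2% had a log2 fold change below 0. Under loess offsets on average CPM, T and EOMES had a slightly higher sum in the high population.

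**Figure D4:**
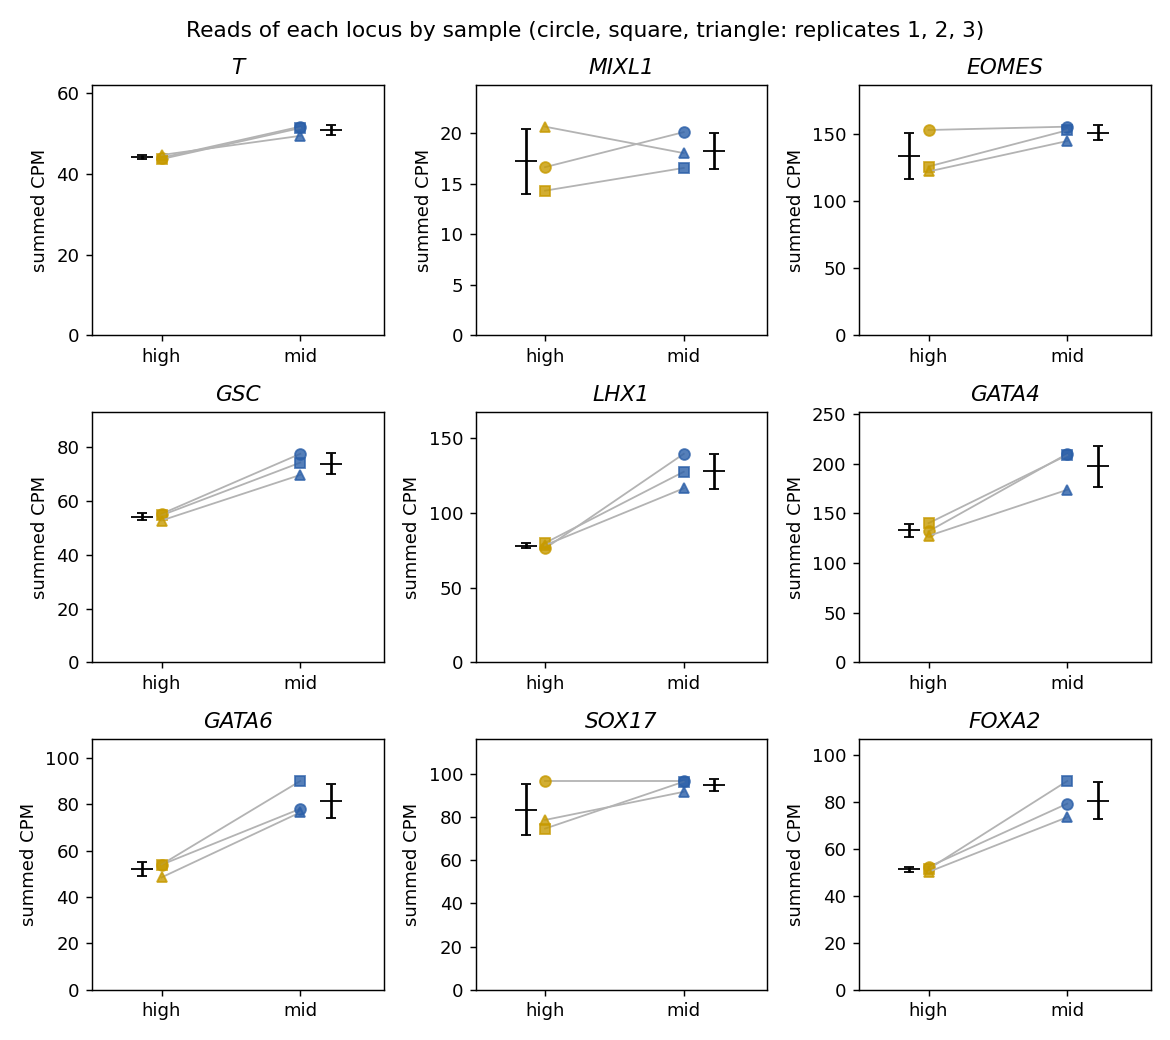
Summed CPM of each locus (vertical axis, from 0) in every sample of the high and mid populations, with lines joining samples of the same replicate number and black bars for the mean and SD of 3 replicates. The populations do not overlap at T, GSC, LHX1, GATA4, GATA6 and FOXA2 and overlap at MIXL1, EOMES and SOX17.

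Ratios between loci within a sample need no library scaling, and these were computed after the locus sums had been seen. The log2 ratio of EOMES to GATA6 reads was 1.504, 1.22 and 1.33 in the high replicates and 0.99, 0.76 and 0.92 in the mid replicates. EOMES to LHX1 was 1.003, 0.65 and 0.64 against 0.16, 0.26 and 0.31. Both ratios were higher in every high sample than in every mid sample, while EOMES to SOX17, at 0.66, 0.75 and 0.63 against 0.69, 0.66 and 0.66, overlapped. Of all 36 ratios among the 9 loci 22 did not overlap. The 36 ratios are built from the same 9 sums, so they are not independent and restate the locus sums. The share of such ratios at other loci was not computed. The smallest adjusted exact permutation p was 0.164, so none passed a threshold that the design could not reach.

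The share of a locus's reads in its leading region was compared, to ask whether the regions of a locus changed by unequal amounts. No adjusted exact permutation p fell below 0.3, so unequal amounts were not established. The leading region held 79.8 ± 2.16% of the GSC reads of the high samples and 83.2 ± 0.919% of those of the mid samples, 18.7 ± 1.49% and 21.8 ± 1.07% of the GATA4 reads, and 71.7 ± 2.65% and 78.2 ± 4.44% of the GATA6 reads (SD, n = 3). At these 3 loci the mid shares were above the high shares in every sample, with an exact permutation p of 0.1 and an adjusted value of 0.3 over the 9 loci. At the other 6 loci the shares overlapped. At LHX1 and FOXA2, where 3 regions each were called, the leading share was 49.8 ± 4.33% and 52.9 ± 1.55% in the high samples and 52.1 ± 3.70% and 52.4 ± 2.38% in the mid samples.

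The surroundings of the windows were examined next. Within 500 kb on either side of the 9 windows lay 462 regions, of which 19 were called toward mid and 6 toward high, a share toward mid near the 3.77% of all regions. Of the 50 that were at least 2000 bp wide, 3 were called toward mid, a lower share than the 20.7% of all regions of that width, whereas 12 of 19 were called inside the windows. The surroundings of LHX1 held 10 of those 19, among 60 regions (16.7%), and their median log2 fold change was -0.35. Around GATA4 and GATA6 the medians were -0.13 and -0.24 with 3 of 64 and 2 of 33 called, and around FOXA2 the median was -0.22 with 0 of 29 called. Around T and EOMES the medians were 0.09 and 0.23 with 0 called toward mid at either. With the median of regions within 1 Mb taken as the offset, 7 regions of the loci were called, against 2304 of all 118556, and the median over the 45 was -0.29. Of the 7, 5 were among the 13: the leading regions of GSC, LHX1, GATA4 and GATA6 and the sixth GATA4 region.

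The 32 uncalled regions were mostly narrow, 25 of them under 2000 bp, and 26 of the 32 lay below 0. The range over all 45 was -0.81 to 0.45. An uncalled region is no sign of equal accessibility: with 21 reads in the thinnest sample, the 95% intervals of the weakest regions spanned more than the called changes.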

How the data were processed

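Open chromatin was profiled by FAST-ATAC in 6 samples of sorted WA09 cells, 3 per population. The authors mapped Trimmomatic-trimmed reads to hg19 (BWA 0.7.15), removed duplicates, moved each read start to the Tn5 cut position, ran MACS on alignments pooled across replicates and merged the regions found in either population. The submitters' processing notes name MACS 1.4.2 and SAMtools 0.1.19. The authors deposited raw counts of reads per region and sample, with no normalization. Pooled calling leaves wide merged regions with more reads and more power, and gives no information on how often a region was found in single replicates.

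Region starts are printed 1 above the deposited start, which was read as counting from 0. Counts of all 118556 regions were fitted with edgeR 4.0.16 under R 4.3.3 (scaling by TMM, no filter, quasi-likelihood F test, and the 3 replicate numbers as a block) and adjusted by Benjamini-Hochberg, with calls under 0.01. Alternatives were no replicate block, a batch term of 2 levels, other scalings, loess offsets in limma 3.58.1 (span 0.3), neighbour offsets within 1 Mb, a filter of CPM above 1 in 3 samples, the likelihood ratio test, DESeq2 1.42.0, and fits lacking a pair or a single sample in turn. Loess offsets on region width and the leave-outs for the leading share were added after the data were seen. Same-numbered samples were treated as pairs, although the sample titles give only replicate numbers and do not say that such samples share a culture or sort. Deviations from the group means correlated across regions with r of 0.302, 0.191 and 0.234 for same-numbered samples and from -0.257 to 0.06 otherwise. Deviations within a group cancel out, so these r values are not independent of each other. Regions are not independent replicates. The fits were tested on simulated data.

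Locus sums and leading shares were compared by two-sided exact permutation over the 6 samples. Named regions were, in each locus, the region with most reads, every called region and the region with the smallest p. Other regions are named where a value is singled out, and were chosen after their values were seen. The windows, regions and comparisons were chosen with earlier results of these data known. The window names were taken as given. Gene features of the regions and other genes of the germ-layer network were not analysed here, since the annotation used is of another build than the counts. Total counts of 15486251 to 29025274 per sample set the precision, and intervals cover the fitted spread between 3 replicates.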

Additional observations from a re-analysis of the deposited data

How the results depend on the processing

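The count of regions called toward the mid population, 13, was 6 without the replicate block, 7 with neighbour offsets, 6 with loess offsets on width, and 0 to 15 with a pair or a sample left out, the low values (0, 0 and 2) coming from leaving out replicate 2 as a pair, its mid sample or its high sample. The median over the 45 was -0.42 in each of those 3, against -0.41. No setting called a region toward the high population. The other settings gave 9 (library totals, which move the median of all regions from 0.03 to 0.12) to 14 calls at an adjusted p under 0.01, and 16 passed at 0.05. Removing the block left 6 of the 13 called and added none. The neighbour offsets called EOMES regions 2 and 3 (-0.43 and -0.63), and EOMES region 3 was also called, at -0.50 to -0.53, when replicate 1 or either of its samples was left out. Signs reversed under loess on average CPM and on width for the leading regions of T (0.009 and 0.153) and EOMES (0.136 and 0.238) and for the locus sums of T (0.001 and 0.13) and EOMES (0.067 and 0.184). With samples left out, the leading region of MIXL1 ranged from -0.086 to 0.162 and its locus sum from -0.241 to 0.028. The difference in leading share, in percentage points of high minus mid, ranged from -2.23 to 0.249 for T, -0.318 to 1.84 for EOMES, -4.63 to 0.063 for LHX1 and -1.40 to 1.68 for FOXA2, none of which had separated populations. The called regions had negative values under every setting run. The cause of these changes was not tested. With 3 samples a group, no exact permutation p could fall below 0.1, or below 0.333 with a pair left out.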
